A study of Mus musculus with 8 samples.

Results

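Spp1 and Cd44 are the genes of osteopontin and of one of its cell-surface receptors, and they were taken by name as 2 of the 24411 genes counted in every library. The cells were A223, a line from a squamous cell carcinoma of the mouse, and their polyadenylated RNA was sequenced in 8 libraries that form 4 groups of 2 replicates. The groups were PRDX6 knockdown (KD) cells after 18 h of 100 nM largazole, KD cells with DMSO at 0 h, parental cells after 18 h of 100 nM largazole, and parental cells with DMSO at 0 h. Largazole is an inhibitor of class I histone deacetylases, and PRDX6 is a peroxiredoxin that reduces peroxides. All largazole libraries were taken at 18 h and all DMSO libraries at 0 h, so drug and time cannot be told apart. The knockdown was compared with parental cells, since a control with a non-targeting construct was not analysed here. Whether the replicates are separate cultures is not stated, and p-values therefore rest on a spread between libraries that may be technical only. Spp1 was selected on its abundance in these libraries, so its share and rank are given as a description with no test.

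Osteopontin is a secreted, heavily phosphorylated and glycosylated protein of bone matrix, kidney and milk that many carcinomas and macrophages also release. It binds integrins through an arginine-glycine-aspartate (RGD) motif and is cut by thrombin and matrix metalloproteinases, which exposes further binding sites. CD44 is a transmembrane glycoprotein best known as the main receptor for hyaluronan, a polysaccharide of the extracellular matrix, and has been described as a receptor for osteopontin. Its pre-mRNA is alternatively spliced, its outer part can be shed by proteases, and its tail binds the cytoskeleton through ezrin, radixin and moesin.

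Spp1 (ENSMUSG00000029304.14) lies at chr5:104435118-104441050 on the plus strand of GRCm38, the assembly named mm10, and Cd44 (ENSMUSG00000005087.17) at chr2:102811141-102901665 on the minus strand. GENCODE M21 lists 7 transcripts of Spp1, of which 4 have a complete coding sequence of 294 to 295 codons. The RGD codons stand once in each of these 4, at codon 144 of Spp1-201, and are shown because they encode the site that integrins bind. The stretch around them is given 5′ to 3′ on the coding strand, with the 3 RGD codons in capitals.
Spp1-201, integrin-binding site: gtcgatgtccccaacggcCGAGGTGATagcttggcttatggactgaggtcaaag
For Cd44 there are 9 transcripts, 8 of them coding, with 365 to 780 codons and up to 19 exons in a transcript, and none of the 8 holds RGD. Counts per gene cannot show which of these isoforms was made. Exons of Spp1 overlap those of Gm42793 on the same strand, a gene with no row in the count tables, while no exon of another gene overlaps Cd44.

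The promoters of both genes are shown because the drug acts on chromatin and both genes differed between largazole and DMSO libraries. They come from RefSeq on GRCm38.p6, span 250 bases before the transcription start and 50 after it, and are printed 5′ to 3′ on the strand of the gene, with the matches to the motifs below, other than the E-box, in capitals. RefSeq's table holds 2 promoters of Spp1 and 1 of Cd44. The one shown for Spp1 is the upstream one, at chr5:104434861-104435160 on the plus strand, and that of Cd44 is at chr2:102901616-102901915 on the minus strand.
Spp1 promoter: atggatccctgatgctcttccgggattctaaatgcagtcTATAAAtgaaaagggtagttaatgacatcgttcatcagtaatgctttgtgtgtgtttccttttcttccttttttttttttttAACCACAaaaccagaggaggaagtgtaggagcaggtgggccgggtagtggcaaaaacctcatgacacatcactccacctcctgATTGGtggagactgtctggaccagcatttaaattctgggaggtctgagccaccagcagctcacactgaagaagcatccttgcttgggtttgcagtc
Cd44 promoter: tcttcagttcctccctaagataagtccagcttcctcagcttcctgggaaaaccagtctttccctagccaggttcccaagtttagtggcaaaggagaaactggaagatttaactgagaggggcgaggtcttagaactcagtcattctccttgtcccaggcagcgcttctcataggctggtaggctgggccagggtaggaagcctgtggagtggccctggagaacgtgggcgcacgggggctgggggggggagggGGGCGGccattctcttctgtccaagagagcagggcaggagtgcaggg
The Spp1 promoter has a GC content of 45.3% and 3 CpG dinucleotides, and that of Cd44 58.0% and 6, against a median GC content of 52.7% over all promoters of the table. A set of 7 short motifs was searched on both strands over 32851 promoters. In Spp1 a RUNX motif (TGTGGTT) lay on the minus strand 129 to 123 bases before the start, and 5.27% of all promoters hold one. A CCAAT box lay on the minus strand 46 to 42 bases before the start (37.4% of promoters), TATAAA 211 to 206 bases before it (13.6%), and an E-box (CANNTG) 98 to 93 bases before it (72.3%). In Cd44 only a GC box (GGGCGG) was found, 4 to 9 bases into the transcript, a motif that 35.7% of promoters hold. Neither promoter held the AP-1 motif TGANTCA (7.81% of promoters) or the half-site TGACG (20.8%). A match is a run of letters and not a measured site.

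Each library held 13020492 to 15613216 estimated counts, and 12517 genes had enough counts to be tested. Prdx6, the targeted gene, stood at 73.0 ± 11.4 CPM (counts scaled to the same library size, with TMM factors) in KD largazole and 82.9 ± 5.23 in KD DMSO cells, and at 245 ± 17.1 in parental largazole and 290 ± 10.1 in parental DMSO cells (SD, n = 2 each). The ribosomal RNA precursor Rn45s differed between replicates, most of all in KD largazole, with 23915 CPM in replicate 1 and 742 CPM in replicate 2. Of 12 epithelial genes listed for squamous or basal keratinocytes only Krt8 and Krt18, keratins not particular to those cells, averaged at least 5 CPM. Krt5, Trp63 and Cdh1 averaged under 1 CPM, so that most defining markers of the labelled tumour type were at or near 0. Of 8 fibroblast markers 7 reached 5 CPM, with the collagen gene Col1a1 highest. The fibroblast markers summed to 4499 to 5151 CPM in KD largazole, 5155 to 5234 in KD DMSO, 3589 to 3647 in parental largazole and 3583 to 3595 in parental DMSO libraries. Within these sums the markers went in both directions with largazole. In parental cells Col3a1 averaged 348 CPM against 685 in DMSO and Pdgfra 240 against 397, while Col1a1 averaged 1543 against 1181 and Thy1 62.3 against 16.7. In KD cells Col3a1 averaged 907 against 1165 CPM and Col1a1 1804 against 1665. Among 13 macrophage markers Adgre1, Tyrobp, Aif1 and C1qa had 0 counts in every library and Ptprc and Csf1r averaged under 1 CPM. Cd68, Cd14 and Mrc1 reached 5 CPM, and the list summed to 63.0 to 75.2 CPM in KD largazole, 56.9 to 58.5 in KD DMSO, 80.8 to 82.0 in parental largazole and 46.3 to 47.2 in parental DMSO libraries. These sums hide opposite directions. Cd68 averaged 44.3 CPM in KD largazole against 4.38 in KD DMSO and 61.8 in parental largazole against 4.15 in parental DMSO cells. Cd14 averaged 17.4 against 48.4 CPM in KD and 11.5 against 36.6 in parental cells. The list of 12 epithelial genes, nearly all of it Krt8, summed to 1329 to 1615 CPM in KD largazole, 2300.0 to 2401 in KD DMSO, 1171 to 1282 in parental largazole and 2005 to 2137 in parental DMSO libraries. Within it Krt8 was lower with largazole, as Cd44 was, while Krt18 averaged 171 CPM in KD largazole against 123 in KD DMSO cells and 156 in parental largazole against 96.3 in parental DMSO cells. Krt14, Epcam and Trp63 averaged 0.572 to 3.50 CPM in the largazole groups and 0 to 0.145 in the DMSO groups. Of 8 osteoblast markers Col1a1, Runx2 and Phex reached 5 CPM. Over the groups Dmp1 averaged 0.812 to 1.95 CPM and Ibsp 0 to 1.77 CPM, highest in KD largazole, while Sp7, Bglap and Alpl stayed under 1 CPM. The osteoblast list, nearly all of it Col1a1, summed to 1759.9 to 2011 CPM in KD largazole, 1714 to 1735 in KD DMSO, 1615 to 1618 in parental largazole and 1243 to 1245 in parental DMSO libraries. The part of these lists, of Rn45s and of depth in the results was not tested.

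Spp1 was the most abundant of all counted genes on average, with 1.05% of a library, ahead of the translation elongation factor gene Eef1a1 (0.988%), Rn45s (0.599%), the intermediate filament gene Vim (0.571%) and the glycolytic enzyme gene Pkm (0.549%). In KD largazole cells it took 222073 and 224705 counts, which are 1.71% (95% exact Clopper-Pearson interval 1.70 to 1.71) and 1.57% (1.57 to 1.58) of the library. KD DMSO libraries gave 152680 and 136689 counts, or 0.978% (0.973 to 0.983) and 0.986% (0.980 to 0.991). It had 151957 and 156801 counts in parental largazole cells, or 1.06% (1.05 to 1.06) and 1.07% (1.07 to 1.08). In parental DMSO cells the counts were 71118 and 77884, or 0.515% (0.512 to 0.519) and 0.518% (0.514 to 0.522). All 4 groups were apart from each other, KD largazole being highest and parental DMSO lowest. These intervals cover counting error only. The replicates differed by more than that within KD largazole and, to a smaller extent, within parental largazole.

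**Figure D1:**
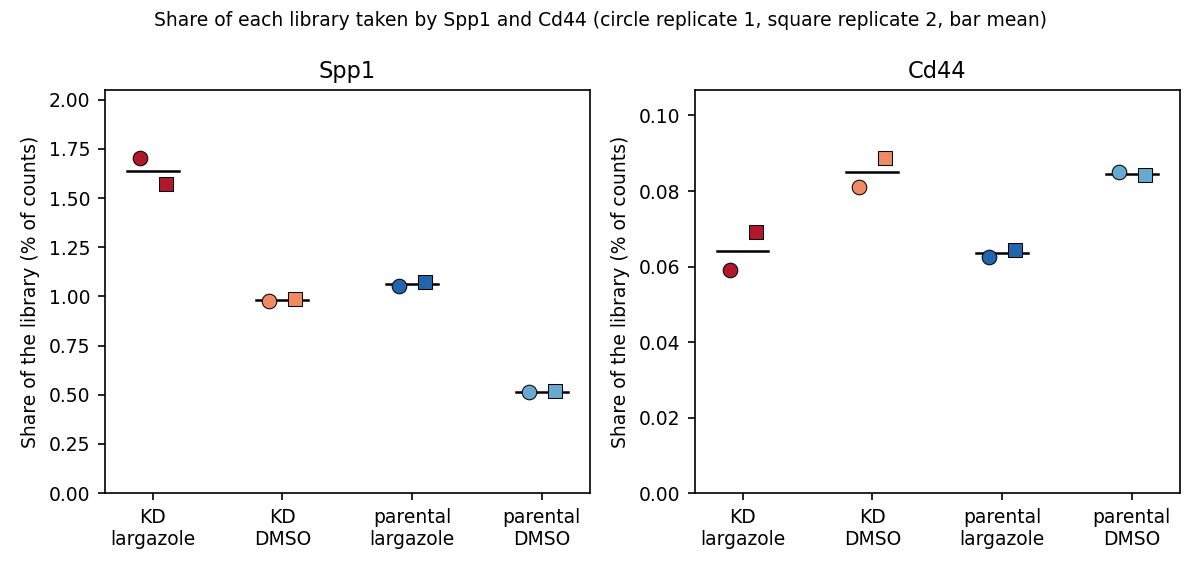
Share of each library, in percent of its counts, taken by Spp1 (left) and Cd44 (right) in the 4 groups, with a circle for replicate 1, a square for replicate 2 and a bar for the mean. Spp1 averages 1.64% in KD largazole and 0.517% in parental DMSO, with the other two groups near 1%, while Cd44 is split by treatment and lies at 0.0641% and 0.0635% in the largazole groups.

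Put another way, 1 in 58.6 and 1 in 63.5 counts of the KD largazole libraries came from Spp1, against 1 in 194 and 1 in 193 of the parental DMSO libraries. By count it ranked second and first in KD largazole, second in both KD DMSO, first in both parental largazole libraries, and at rank 3 in both parental DMSO libraries. By the group mean per kilobase of exon it ranked first in KD largazole, KD DMSO and parental largazole cells and second, behind Eef1a1, in parental DMSO cells. Its level per kilobase was 9848 ± 925 CPM in KD largazole, 6106 ± 6.55 in KD DMSO, 6275 ± 6.31 in parental largazole and 3190 ± 1.67 in parental DMSO cells. The share of Eef1a1 stayed between 0.897% and 1.06% over the 8 libraries.

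Spp1 was higher with largazole in both genotypes and higher in KD than in parental cells in both treatments. Its scaled level was 17309 and 15152 CPM in KD largazole, 10055 and 10070 in KD DMSO, 10349 and 10334 in parental largazole, and 5259 and 5255 CPM in parental DMSO libraries. In order of level the groups were KD largazole, parental largazole, KD DMSO and parental DMSO, and no pair of neighbours overlapped. The middle pair, which differs in both genotype and treatment and was not tested, lay closest, with 10341.5 ± 10.4 CPM for parental largazole and 10062 ± 10.8 CPM for KD DMSO cells (SD, n = 2 each). With largazole it rose 1.61-fold in KD cells (95% interval 1.41 to 1.84, log2 fold change 0.69 ± 0.09 SE, adjusted p = 1.29e-04) and 1.97-fold in parental cells (1.72 to 2.25, 0.98 ± 0.09, adjusted p = 1.42e-05, edgeR's quasi-likelihood test over 12517 genes). Of all genes tested, 25.0% rose with largazole in KD and 26.9% in parental cells. The knockdown was accompanied by a 1.57-fold higher level under largazole (1.37 to 1.79, 0.65 ± 0.09, adjusted p = 9.18e-04) and a 1.91-fold higher level in DMSO (1.68 to 2.19, 0.94 ± 0.09, adjusted p = 1.37e-04). Here 8.51% of genes were higher in KD under largazole and 7.01% in DMSO. The 4 pairwise comparisons share libraries, since each group of 2 enters a pair of them. In bulk RNA, fewer cells of a type and less RNA per cell cannot be told apart.

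**Figure D2:**
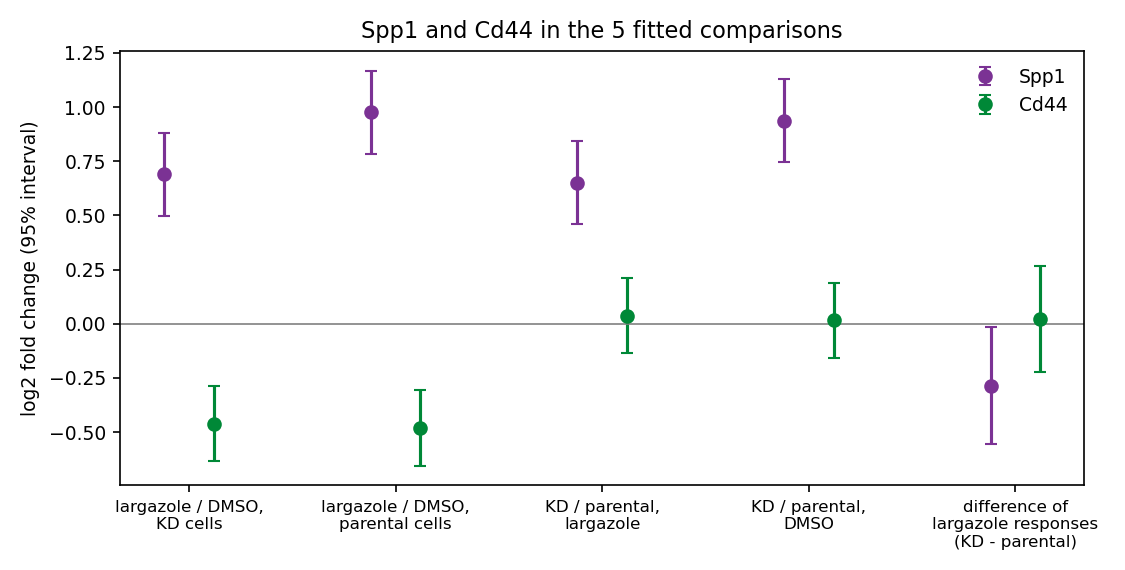
Log2 fold change of Spp1 (purple) and Cd44 (green) in the 5 fitted comparisons, with bars for the 95% interval and a line at no change. Spp1 lies above 0 in the 4 pairwise comparisons (0.69, 0.98, 0.65 and 0.94), and Cd44 lies below 0 in the largazole comparisons only (-0.46 and -0.48).

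On the linear scale the largazole-related increment of Spp1 was 6168 CPM in KD and 5085 CPM in parental cells, and the KD-related one 5889 CPM under largazole and 4805 CPM in DMSO. KD largazole cells held 3.09 times the level of parental DMSO cells. On the log2 scale the response to largazole was smaller in KD than in parental cells by 0.29 (-0.29 ± 0.12, 95% interval -0.56 to -0.02), which did not pass after adjustment (unadjusted p = 0.0396, adjusted p = 0.539, edgeR), where 0.0320% of genes passed as higher, 0.176% as lower and 0.208% in either direction. It passed without KD largazole replicate 1, the library with 23915 CPM of Rn45s (-0.39), and not without replicate 2 (-0.18). Each of these fits left 1 library in that group. With Rn45s left out of the counts the difference was -0.29 and did not pass (adjusted p = 0.501, edgeR). Without KD largazole replicate 1 the rise with largazole in KD cells was 0.59 and without replicate 2 it was 0.78, and with Rn45s left out of the counts it was 0.69.

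Cd44 differed by treatment and not detectably by genotype. It had 7706 and 9868 counts in KD largazole, 12663 and 12322 in KD DMSO, 9000 and 9413 in parental largazole, and 11725 and 12657 in parental DMSO libraries. Scaled, these were 601 and 665 CPM in KD largazole, 834 and 908 in KD DMSO, 613 and 620 in parental largazole, and 867 and 854 in parental DMSO libraries, so every largazole library lay below every DMSO library and the genotypes overlapped. Cd44 took 0.0641 ± 0.00702% of a KD largazole, 0.0850 ± 0.00547% of a KD DMSO, 0.0635 ± 0.00136% of a parental largazole and 0.0846 ± 0.000552% of a parental DMSO library, and ranked 109 to 206 by count over the 8 libraries. It fell with largazole to 0.727 of the DMSO level in KD cells (95% interval 0.645 to 0.820, log2 fold change -0.46 ± 0.08, adjusted p = 8.99e-04) and to 0.717 in parental cells (0.635 to 0.808, -0.48 ± 0.08, adjusted p = 6.64e-04, edgeR). Of all genes tested 23.2% fell with largazole in KD cells and 22.7% in parental cells, and 48.2% and 49.6% passed in either direction. The decrease in CPM was 238 in KD and 244 in parental cells, and the difference of the log2 responses was 0.02 (95% interval -0.22 to 0.27, adjusted p = 0.996). Between the genotypes the log2 fold change was 0.04 under largazole (-0.14 to 0.21, adjusted p = 0.785) and 0.02 in DMSO (-0.16 to 0.19, adjusted p = 0.934), in comparisons where 18.3% (8.51% higher and 9.81% lower) and 11.0% (7.01% higher and 4.02% lower) of genes passed.

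The ratio of Spp1 to Cd44, each per kilobase of exon, combined both patterns. It was 118 and 93.6 in KD largazole, 49.6 and 45.6 in KD DMSO, 69.4 and 68.5 in parental largazole, and 24.9 and 25.3 in parental DMSO libraries, with no overlap of groups. With the longest transcript of each gene as its length the ratios ran between 22.6 and 107.

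Osteopontin's integrin receptors were examined next. Of 9 listed integrin subunit genes 6 were tested, and Itga4, Itga9 and Itgb6 had at most 2 counts in a library. With largazole 1 rose and 1 fell in KD cells and 3 rose and 1 fell in parental cells, and 3 were higher in KD cells under largazole as in DMSO, with none lower. Over all genes tested 48.2% and 49.6% passed with largazole in KD and parental cells, and 18.3% and 11.0% with the knockdown under largazole and in DMSO. The integrin genes had median log2 fold changes of 0.09 and 0.41 with largazole in KD and parental cells and 0.31 and 0.38 with the knockdown under largazole and in DMSO, against medians over all tested genes of 0.01, 0.03, -0.0031 and 0.00. The count with the knockdown under largazole was 1 without either parental largazole library, and that in DMSO was 1 without parental DMSO replicate 2.

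Itgb3, the beta chain of the vitronectin receptor that binds osteopontin with the alpha v chain, stood at 107 and 129.5 CPM in KD largazole, 101 and 105 in KD DMSO, 73.3 and 71.0 in parental largazole and 38.5 and 43.1 CPM in parental DMSO libraries. KD libraries were above all parental ones, and parental DMSO was lowest. With the knockdown it rose by 0.71 ± 0.11 under largazole and 1.34 ± 0.11 in DMSO (adjusted p = 0.00168 and 7.87e-05, edgeR). With largazole it rose by 0.82 ± 0.11 in parental cells (adjusted p = 1.96e-04), and its log2 fold change in KD cells was 0.19 ± 0.10 (adjusted p = 0.155). The difference of the responses did not pass (-0.63, adjusted p = 0.171).

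Itgb5, another partner of alpha v, stood at 476 ± 22.2 CPM in KD largazole, 239 ± 2.93 in KD DMSO, 381 ± 8.21 in parental largazole and 173 ± 9.13 in parental DMSO cells (SD, n = 2 each, as for all means below). It rose with largazole by 0.99 ± 0.07 and 1.13 ± 0.07 in KD and parental cells, and was higher in KD cells by 0.32 ± 0.07 under largazole and 0.46 ± 0.07 in DMSO. The call under largazole was lost without either parental largazole library and that in DMSO without parental DMSO replicate 2. Itga5, the alpha chain of the fibronectin receptor, had the opposite sign with largazole and stood at 284 ± 21.9 CPM in KD largazole, 520.3 ± 16.3 in KD DMSO, 232 ± 13.0 in parental largazole and 423 ± 6.45 in parental DMSO cells. It fell by 0.87 in KD and 0.86 in parental cells. Its log2 fold changes with the knockdown, 0.29 ± 0.08 under largazole and 0.30 ± 0.08 in DMSO, passed (adjusted p = 0.0326 and 0.0401) and were each lost under 8 of 20 alternatives. Itga8, whose product pairs with beta 1, passed as higher with largazole in parental cells at 1.91 ± 0.0917 CPM against 0.980 ± 0.236 in DMSO, also lost under 8 alternatives. The shared chains Itgav and Itgb1 passed in none of the 4 pairwise comparisons, and averaged 185 to 217 CPM and 1226 to 1357 CPM over the groups. Per kilobase of exon, Itgb1 was at 300 to 333 CPM and Itgav at 17.2 to 20.2 CPM.

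Enzymes that modify or cut osteopontin followed no single direction. Of 11 genes 6 were tested, and with largazole 4 rose and 2 fell in both genotypes, while 2 were higher in KD cells in each treatment and none was lower. Among all genes the shares that passed were 48.2% and 49.6% with largazole in KD and parental cells and 18.3% and 11.0% with the knockdown under largazole and in DMSO. The count for the knockdown under largazole was 1 without parental largazole replicate 1, and that in DMSO was 4 without KD largazole replicate 1. Fam20c, the kinase that phosphorylates secreted proteins such as osteopontin, F2, the gene of prothrombin, and Mmp7, the matrilysin gene, had 0 counts in every library. Tgm2, a transglutaminase that cross-links osteopontin, stood at 299 ± 14.6 CPM in KD largazole, 152 ± 2.08 in KD DMSO, 295 ± 5.99 in parental largazole and 132 ± 0.262 in parental DMSO cells. It rose by 0.98 ± 0.07 and 1.17 ± 0.07 on the log2 scale with largazole in KD and parental cells.

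Mmp3, the stromelysin gene, had 25.3 and 25.1 CPM in KD largazole, 169 and 168 in KD DMSO, 11.0 and 7.84 in parental largazole and 31.6 and 30.4 CPM in parental DMSO libraries. It was low in both largazole groups and high in KD DMSO. With largazole it fell by 2.74 in KD and 1.72 in parental cells on the log2 scale, and it was higher in KD cells by 1.42 ± 0.14 under largazole and 2.44 ± 0.12 in DMSO. Plau, which encodes the plasminogen activator urokinase, fell with largazole by 0.94 and 0.56 in KD and parental cells, and was higher in KD cells by 0.40 ± 0.07 and 0.78 ± 0.07 under largazole and in DMSO. The call under largazole was lost without parental largazole replicate 1 (adjusted p = 0.0621). Phex, an endopeptidase that degrades osteopontin, rose by 1.10 ± 0.11 and 0.65 ± 0.11 and the lysosomal protease gene Ctsd by 0.83 ± 0.09 and 0.88 ± 0.09 with largazole in KD and parental cells. Mmp12, a macrophage elastase gene, had 10 and 11 counts in KD largazole, 2 and 4 in KD DMSO, 18 and 16 in parental largazole and 0 in both parental DMSO libraries.

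The other genes of the bone glycoprotein family to which Spp1 belongs were near the limit of detection. Dspp had 0 counts in every library and Mepe 1 count in a single library. Ibsp, the bone sialoprotein gene, had 23 and 26 counts in KD largazole, 0 in both KD DMSO, 10 and 11 in parental largazole and 6 and 0 in parental DMSO libraries. Ibsp passed with largazole in KD cells, as did Abcg2, a membrane transporter gene on the same list, where 48.2% of all genes passed. Abcg2 is not of this family, and it lies on chromosome 6 while Spp1 lies on chromosome 5. In the other comparisons none of the 4 tested genes (Ibsp, Abcg2, Dmp1 and Pkd2) passed. Abcg2 had 10 and 22 counts in KD largazole, 6 and 1 in KD DMSO, 7 and 8 in parental largazole and 2 and 6 in parental DMSO libraries. These 2 calls became 0 under a stricter filter on low counts and 1 with DESeq2. That of Abcg2 was also lost without KD DMSO replicate 2 or KD largazole replicate 2 (adjusted p up to 0.131). With largazole in parental cells 1 gene passed without parental DMSO replicate 1 or either KD largazole library, and with the knockdown under largazole 1 passed without KD largazole replicate 2. With only the libraries compared, 3 of the 4 tested genes passed with largazole in parental cells. In that fit 4014 of all genes rose and 3861 fell, against 3366 and 2839 with all libraries fitted. With upper-quartile scaling or limma-voom 1 of the 4 passed in parental cells. Dmp1 averaged 0.812 to 1.95 CPM and Pkd2, a gene near Spp1, 107 to 130 CPM, and neither passed in any comparison of the main fit.

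On a list of matricellular proteins, secreted proteins that act on cells from within the matrix as osteopontin does, 11 of 16 genes other than Spp1 were tested. The list also holds the fibronectin and vitronectin genes Fn1 and Vtn, whose products are adhesive proteins of the matrix, and its counts and medians include Fn1. With largazole 5 rose and 4 fell in KD cells and 6 rose and 4 fell in parental cells, and with the knockdown 5 were higher and 2 lower in each treatment, where 48.2% and 49.6% (largazole in KD and parental cells) and 18.3% and 11.0% (knockdown under largazole and in DMSO) of all genes passed. Medians were 0.41 and 0.67 with largazole in KD and parental cells and 0.40 and 0.39 with the knockdown under largazole and in DMSO. The thrombospondins Thbs1 and Thbs2, which bind cell-surface and matrix proteins, were higher in each of the 4 comparisons. Thbs1 stood at 918 and 1181 CPM in KD largazole, 610.3 and 646 in KD DMSO, 447 and 508 in parental largazole and 306 and 292 CPM in parental DMSO libraries, and both KD groups were above both parental groups. Its log2 fold change was 0.74 ± 0.11 and 0.67 ± 0.12 with largazole in KD and parental cells, and 1.14 ± 0.12 and 1.07 ± 0.12 with the knockdown under largazole and in DMSO. Thbs2 stood at 809 and 1010.2 CPM in KD largazole, 380.2 and 404 in KD DMSO, 527 and 581 in parental largazole and 208 and 202 CPM in parental DMSO libraries, so that, as for Spp1, parental largazole was above KD DMSO.

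Tnc, the tenascin C gene, stood at 199 and 239 CPM in KD largazole, 894 and 1006 in KD DMSO, 91.4 and 97.7 in parental largazole and 318 and 312 CPM in parental DMSO libraries. It fell with largazole by 2.12 and 1.74 in KD and parental cells and was higher in KD cells by 1.21 ± 0.10 under largazole and 1.59 ± 0.10 in DMSO. Fn1, the fibronectin gene, stood at 1854 and 2552 CPM in KD largazole, 876 and 1013 in KD DMSO, 1588 and 1761 in parental largazole and 719.8 and 723 CPM in parental DMSO libraries. It rose with largazole by 1.22 ± 0.14 in KD and 1.21 ± 0.14 in parental cells, and its difference between genotypes did not pass (0.40 and 0.39 under largazole and in DMSO, adjusted p = 0.0695 and 0.103). Nov, a relative of Ctgf, rose with largazole by 2.88 ± 0.18 and 2.68 ± 0.19 in KD and parental cells, and Fbln1, the fibulin 1 gene, by 1.91 ± 0.45 and 2.52 ± 0.45, at 3.07 ± 1.39 CPM in KD largazole and 3.68 ± 0.388 in parental largazole cells. Fbln5, the fibulin 5 gene, was higher in KD cells by 1.11 ± 0.10 under largazole and 0.66 ± 0.10 in DMSO. The growth factor-related matrix protein genes Ctgf and Cyr61 were lower in KD cells. Ctgf had log2 fold changes of -2.05 ± 0.16 under largazole and -1.35 ± 0.17 in DMSO, and Cyr61 of -1.35 ± 0.09 and -0.55 ± 0.08.

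**Figure D3:**
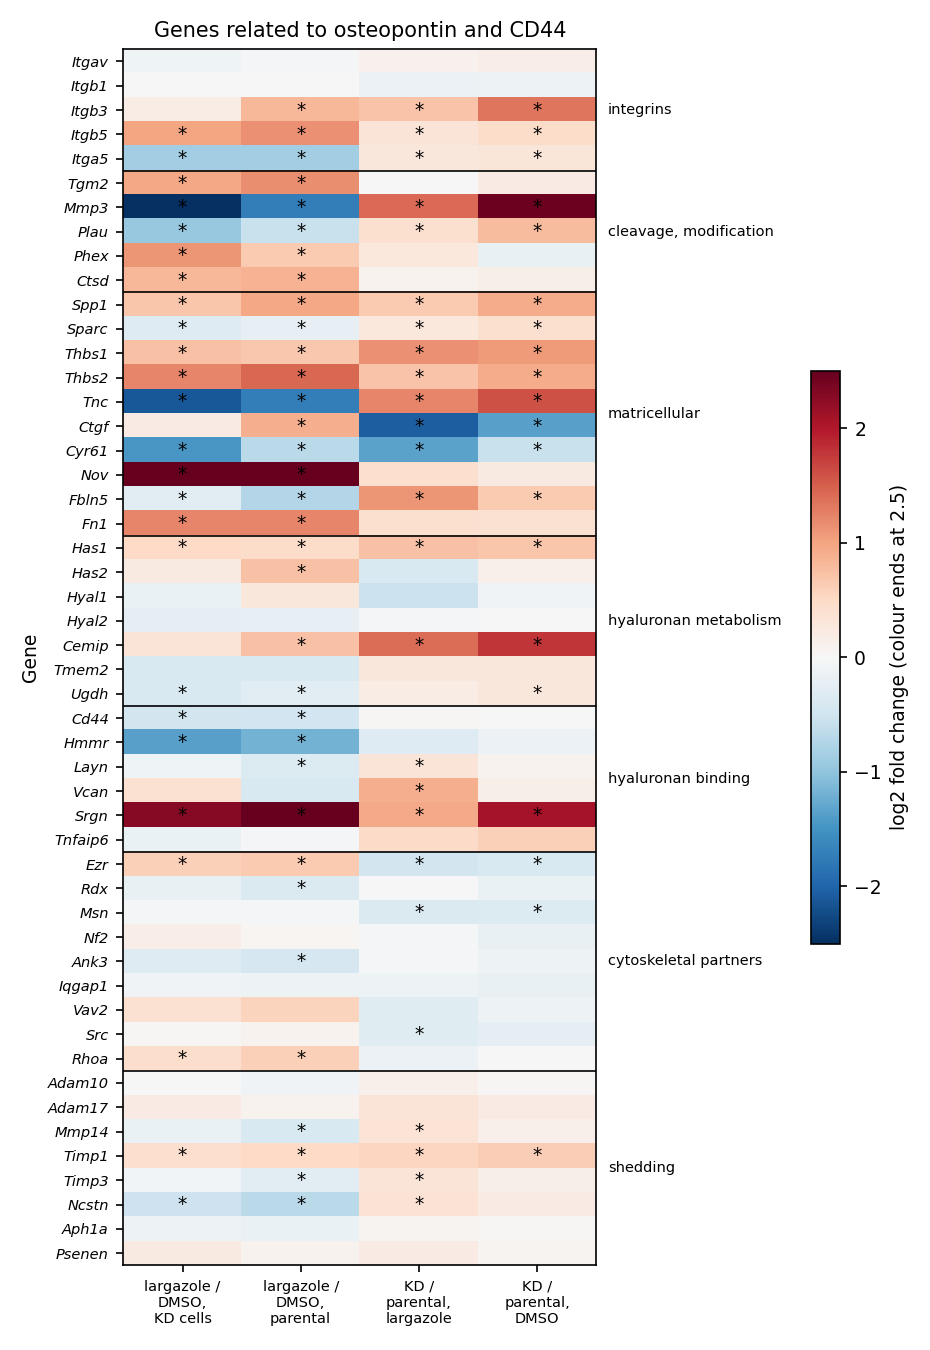
Log2 fold change (colour, red higher and blue lower, ending at 2.5 in either direction) of Spp1, Cd44 and a selection of the related genes, each averaging at least 5 CPM, by group of genes, in the 4 pairwise comparisons, with an asterisk where the adjusted p was under 0.05. Spp1, Thbs1 and Thbs2 are red with an asterisk in all 4 columns, and Mmp3 and Tnc are blue in the largazole columns and red in the KD columns.

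Transcription factors described for osteopontin, or taken as candidates, numbered 22, of which 21 were tested. With largazole 4 rose and 6 fell in KD cells and 7 rose and 7 fell in parental cells, and with the knockdown 4 were higher and 3 lower under largazole and 3 were higher and none lower in DMSO. All genes passed at 48.2% and 49.6% with largazole in KD and parental cells and at 18.3% and 11.0% with the knockdown, so the 10 of 21 in KD cells were near the background. The 14 passing in parental cells became 5 and 7 without parental DMSO replicates 1 and 2, and 7 and 8 without parental largazole replicates 1 and 2. The 7 with the knockdown under largazole became 1 without either parental largazole library, 2 without either parental DMSO library and 3 without either KD DMSO library. The 3 in DMSO became 0 without parental DMSO replicate 2 or either KD DMSO library, 1 without parental DMSO replicate 1 or either parental largazole library, and 7 without either KD largazole library. Medians were -0.11 and 0.01 with largazole in KD and parental cells and 0.01 and 0.03 with the knockdown.

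Runx2, the osteoblast regulator whose family motif stands in the Spp1 promoter shown above, averaged 37.1 to 40.3 CPM and passed in none of the 4 comparisons. Gli1, an effector of Hedgehog signalling, stood at 11.4 ± 1.49 CPM in KD largazole, 0.752 ± 0.334 in KD DMSO, 14.6 ± 0.528 in parental largazole and 0.667 ± 0.107 in parental DMSO cells, and rose with largazole by 3.89 ± 0.28 in KD and 4.43 ± 0.28 in parental cells. Its relative Gli2 had 2 and 4 counts in KD largazole, 23 and 23 in KD DMSO, 4 and 3 in parental largazole and 7 and 2 in parental DMSO libraries. Vdr, the vitamin D receptor gene, stood at 5.66 ± 0.393 CPM in KD largazole, 1.63 ± 0.719 in KD DMSO, 4.42 ± 0.103 in parental largazole and 1.12 ± 0.227 in parental DMSO cells, and rose by 1.82 ± 0.29 and 1.96 ± 0.32 with largazole in KD and parental cells. The AP-1 subunits went in both directions. Fosl1 and Jun fell with largazole, by 0.98 and 0.87 in KD and by 1.19 and 0.94 in parental cells. Junb rose by 0.63 and 0.46 and Fosl2 by 0.34 and 0.36 in KD and parental cells, and Fos by 1.16 in parental cells. The rise of Junb in KD cells held under all alternatives, and the other rises were lost under 3 to 7. Fos had 19 and 23 counts in KD largazole, 26 and 25 in KD DMSO, 19 and 26 in parental largazole and 11 and 8 in parental DMSO libraries. Usf2, which binds E-boxes, fell by 0.64 in KD and 1.01 in parental cells. Myc, a growth regulator, was lower in KD cells under largazole, at 119.8 ± 6.52 CPM against 182 ± 5.50 in parental largazole cells (-0.60 ± 0.08, adjusted p = 9.61e-04). Junb (0.55 ± 0.13), Usf2 (0.38 ± 0.10) and Jund (-0.45 ± 0.14) also passed with the knockdown under largazole, with adjusted p of 0.0182, 0.0229 and 0.0457. The 3 passing in DMSO were Gli2 (2.30 ± 0.51), Fos (1.39 ± 0.38) and Fosl2 (0.37 ± 0.10), with adjusted p of 0.017, 0.0451 and 0.0484, and they were lost under 4, 9 and 10 alternatives.

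The ligand of CD44 is made at the membrane by hyaluronan synthases. Of 9 genes for hyaluronan synthesis and breakdown 7 were tested, and with largazole 1 rose and 1 fell in KD cells and 3 rose and 1 fell in parental cells, against 48.2% and 49.6% of all genes that passed. With the knockdown 2 were higher under largazole and 3 in DMSO, with none lower, against 18.3% and 11.0% of all genes, and medians were -0.17, 0.29, 0.19 and 0.29 in the order of these comparisons. The count in KD cells was 5 without KD largazole replicate 1 and 1 without KD DMSO replicate 2, and that in parental cells 2 without parental DMSO replicate 2 or parental largazole replicate 1. The count with the knockdown under largazole was 5 without KD largazole replicate 2, and that in DMSO 1 without parental DMSO replicate 2 or KD DMSO replicate 1.

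Cemip, a hyaluronan-degrading protein gene, stood at 41.2 and 60.4 CPM in KD largazole, 38.1 and 42.8 in KD DMSO, 19.1 and 19.6 in parental largazole and 10.4 and 12.9 CPM in parental DMSO libraries. It was higher in KD cells by 1.40 ± 0.18 under largazole and 1.79 ± 0.19 in DMSO. The synthase Has1 stood at 89.9 ± 11.8 CPM in KD largazole, 63.5 ± 4.36 in KD DMSO, 54.4 ± 5.48 in parental largazole and 39.6 ± 2.41 in parental DMSO cells, and its rise with the knockdown under largazole (0.72 ± 0.12) held under all alternatives. Has2, the synthase of most connective tissue hyaluronan, rose with largazole by 0.74 ± 0.13 in parental cells, at 70.3 ± 2.16 against 42.2 ± 1.66 CPM in parental DMSO cells. In KD cells its log2 fold change was 0.23 ± 0.13 (adjusted p = 0.159), and Has3 had too few counts to be tested. Ugdh, which makes a precursor sugar of hyaluronan, fell with largazole by 0.38 and 0.28 in KD and parental cells.

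Of 11 other receptors and binding proteins of hyaluronan 6 were tested. With largazole 1 rose and 1 fell in KD cells and 2 rose and 2 fell in parental cells, and with the knockdown 3 were higher and 1 lower under largazole and 1 was higher in DMSO. The shares of all genes were 48.2%, 49.6%, 18.3% and 11.0% in the order of these comparisons. Medians were 0.02 and -0.20 with largazole in KD and parental cells and 0.41 and 0.12 with the knockdown. The 4 passing under largazole became 2 without either parental largazole library, and the 1 in DMSO became 2 without either KD largazole library. Hmmr, the hyaluronan-mediated motility receptor and also a mitotic spindle protein, stood at 64.1 and 68.0 CPM in KD largazole, 155 and 186 in KD DMSO, 75.6 and 89.1 in parental largazole and 190.3 and 185 CPM in parental DMSO libraries, and fell with largazole by 1.36 in KD and 1.19 in parental cells. Srgn, the proteoglycan serglycin, which can bind CD44, was higher in all 4 comparisons, with 39.3 and 33.1 CPM in KD largazole, 7.84 and 7.15 in KD DMSO, 20.3 and 17.3 in parental largazole and 1.63 and 1.89 CPM in parental DMSO libraries. Its log2 fold change was 2.27 ± 0.16 and 3.41 ± 0.21 with largazole in KD and parental cells, and 0.94 ± 0.14 and 2.08 ± 0.23 with the knockdown under largazole and in DMSO. The large proteoglycan Vcan was higher in KD cells under largazole by 0.90 ± 0.15, with 339 and 492 CPM in KD and 207 and 238 CPM in parental libraries. Stab1, a scavenger receptor gene, was lower there (-0.93 ± 0.23) and Layn, the gene of the hyaluronan receptor layilin, higher (0.32 ± 0.10), with adjusted p of 0.0224 and 0.0484. The 4 genes of this list passing in that comparison also became 2 with DESeq2 or with only the libraries compared. Lyve1, the hyaluronan receptor gene of lymphatic vessels, had 12 and 8 counts in KD largazole, 0 in both KD DMSO, 8 and 9 in parental largazole and 0 in both parental DMSO libraries.

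All 9 genes of proteins that join the tail of CD44 to the cytoskeleton or signal from it were tested. With largazole 2 rose and none fell in KD cells and 2 rose and 2 fell in parental cells, and with the knockdown 3 fell under largazole and 2 in DMSO, with none higher. With largazole the 2 and 4 of 9 did not exceed the 48.2% and 49.6% of all genes that passed, and with the knockdown 9.81% and 4.02% of all genes were lower. Medians were 0.02 and 0.04 with largazole in KD and parental cells and -0.15 and -0.18 with the knockdown. Ezr, the ezrin gene, rose with largazole and was lower in KD cells, at 163 ± 5.86 CPM in KD largazole, 108 ± 4.32 in KD DMSO, 224 ± 5.62 in parental largazole and 142 ± 0.0354 in parental DMSO cells. Its log2 fold change was 0.59 ± 0.07 and 0.66 ± 0.07 with largazole in KD and parental cells, and -0.46 ± 0.07 and -0.39 ± 0.07 with the knockdown under largazole and in DMSO. Rhoa, a small GTPase gene, rose with largazole by 0.44 ± 0.08 and 0.59 ± 0.08 in KD and parental cells. Msn, the moesin gene, had log2 fold changes of -0.37 ± 0.08 under largazole and -0.34 ± 0.08 in DMSO with the knockdown, and the kinase gene Src one of -0.30 ± 0.08 under largazole. Rdx, the radixin gene, and Ank3, an ankyrin gene, fell with largazole in parental cells by 0.36 and 0.43 (adjusted p = 0.0118 and 0.0488).

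Several of these counts moved when 1 library was left out. The number of all genes that passed moved in the same direction, so these shifts are not particular to the listed genes. In DMSO the 2 passing with the knockdown became 0 without any 1 of the 4 DMSO libraries, 1 without either parental largazole library, and 4 and 5 without KD largazole replicates 1 and 2. Under largazole the 3 became 1 without either parental largazole library and 5 without KD largazole replicate 2. With largazole the 2 in KD cells became 6 without KD largazole replicate 2, and the 4 in parental cells 2 without either parental DMSO library or parental largazole replicate 1.

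For the proteases that shed CD44, their inhibitors and the membrane protease complex that cuts the remaining stub, all 10 genes were tested. With largazole 2 rose and 1 fell in KD cells and 2 rose and 3 fell in parental cells, and with the knockdown 4 were higher under largazole and 1 in DMSO, with none lower. The 5 of 10 in parental cells were near the 49.6% of all genes that passed there, while 48.2% passed in KD cells, and 8.51% and 7.01% of all genes were higher with the knockdown. Medians were 0.11 and -0.0025 with largazole and 0.33 and 0.14 with the knockdown. The 4 under largazole became 0 without either parental largazole library and 1 without any 1 of the 4 DMSO libraries. The 1 in DMSO, the inhibitor gene Timp1, became 0 without any 1 DMSO or parental largazole library, and the count became 2 without either KD largazole library. The 5 in parental cells became 2 without either parental DMSO library or parental largazole replicate 1, and the 3 in KD cells became 6 without KD largazole replicate 2. The sheddase genes Adam10 and Adam17 passed in none of the 4 comparisons and averaged 160 to 175 and 84.7 to 112 CPM. Mmp14, a membrane-bound metalloproteinase gene, fell with largazole in parental cells by 0.37 and was higher in KD cells under largazole by 0.35 ± 0.10, as was the inhibitor gene Timp3 by 0.32 ± 0.08. Ncstn, the substrate-binding subunit of that complex, fell with largazole by 0.51 in KD and 0.67 in parental cells.

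Among 7 membrane proteins described as partners of CD44, 6 were tested and Kdr had 0 counts throughout. With largazole 2 rose and 1 fell in both genotypes, and with the knockdown 1 was higher and 2 lower under largazole and 1 was lower in DMSO. The 3 of 6 with largazole were near the 48.2% and 49.6% of all genes that passed, and with the knockdown 18.3% and 11.0% did. Medians were 0.03 and 0.06 with largazole and -0.14 and -0.07 with the knockdown. The 3 under largazole became 1 without any 1 parental library, and the 1 in DMSO, the growth factor receptor gene Met (-0.73 ± 0.13), became 0 without either parental DMSO library or KD DMSO replicate 1. Slc7a11, the cystine transporter subunit that a variant form of CD44 stabilises at the membrane, stood at 7.83 ± 0.273 CPM in KD largazole, 37.4 ± 0.408 in KD DMSO, 15.2 ± 2.11 in parental largazole and 30.5 ± 2.72 in parental DMSO cells, and fell with largazole by 2.25 in KD and 1.00 in parental cells. Cd74, a receptor gene of the cytokine MIF that signals with CD44, had 64 and 58 counts in KD largazole, 0 and 1 in KD DMSO, 33 and 43 in parental largazole and 1 and 1 in parental DMSO libraries. Egfr had 25 and 32 counts in KD largazole, 10 and 6 in KD DMSO, 25 and 20 in parental largazole and 1 and 2 in parental DMSO libraries.

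Of 11 splicing regulators described for CD44 10 were tested, and with largazole 1 rose and 6 fell in KD cells and 1 rose and 7 fell in parental cells, while 23.2% and 22.7% of all genes fell. Medians were -0.31 and -0.33 with largazole and -0.12 and -0.10 with the knockdown, where 1 fell under largazole and none passed in DMSO, against 9.81% and 4.02% of all genes that were lower. The 8 in parental cells became 4 without parental DMSO or parental largazole replicate 1 and 5 without replicate 2 of either, and 5 with upper-quartile scaling. The 1 under largazole, Rbm38, became 0 without any 1 parental library, and the count became 2 and 4 without KD largazole replicates 1 and 2. In DMSO 3 passed without either KD largazole library. Tra2b, Hnrnpm and Khdrbs1 (Sam68), which act on the inclusion of variable exons, fell by 0.59, 0.52 and 0.42 in KD and by 0.54, 0.73 and 0.50 in parental cells with largazole, and Rbm38 by 1.04 and 0.51. Esrp1, the epithelial splicing regulator gene, had 0 counts in every library. Esrp2, its relative, had 17 and 20 counts in KD largazole, 2 and 1 in KD DMSO, 18 and 18 in parental largazole and 1 and 0 in parental DMSO libraries.

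CD44 is also used with other surface markers to sort tumour-initiating cells. Of 10 such markers and related genes other than Cd44, 8 were tested, and with largazole 4 rose and 3 fell in both genotypes, where 48.2% of all genes passed in KD and 49.6% in parental cells. With the knockdown 3 were higher under largazole, and 2 were higher and 1 lower in DMSO, where 18.3% and 11.0% of all genes passed, and the first of these counts was 5 without KD largazole replicate 2. Sox2, a stem cell transcription factor gene, and Cd34, a surface marker of hair follicle stem cells, fell with largazole. Sox2 had log2 fold changes of -1.52 ± 0.12 in KD and -1.44 ± 0.11 in parental cells, and Cd34 of -0.38 ± 0.07 and -0.47 ± 0.07. Ly6a, the Sca-1 gene, was higher in KD cells by 1.28 ± 0.15 under largazole and 1.29 ± 0.15 in DMSO. Thy1, a surface glycoprotein gene, was higher in all 4 comparisons, at 116 ± 9.36 CPM in KD largazole, 65.4 ± 0.216 in KD DMSO, 62.3 ± 6.13 in parental largazole and 16.7 ± 1.23 in parental DMSO cells. Itga6, the alpha 6 integrin gene, was the 1 lower in KD cells in DMSO (-0.50 ± 0.11, adjusted p = 0.0165). Epcam had 51 and 45 counts in KD largazole, 0 in both KD DMSO, 36 and 47 in parental largazole and 0 in both parental DMSO libraries. Aldh1a1, a retinal dehydrogenase gene, had 88 and 86 counts in KD largazole, 0 and 3 in KD DMSO, 57 and 43 in parental largazole and 0 in both parental DMSO libraries, and its relative Aldh1a3 had 23 and 25 counts in KD largazole, 2 and 3 in KD DMSO, 26 and 30 in parental largazole and 0 and 5 in parental DMSO libraries.

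Genes were ranked by how closely their log2 CPM, centred on the mean of the gene, followed each gene over the 8 libraries, among 10183 genes averaging at least 5 CPM. The nearest to Spp1, by root mean square difference on the log2 scale, were Fam63a (0.0675), Gstm2 (0.0890), Fcgrt (0.0938), S100a1 (0.109) and Pianp (0.125). Fam63a, a deubiquitinase gene, stood at 206 ± 2.06 CPM in KD largazole, 117 ± 4.32 in KD DMSO, 127 ± 2.56 in parental largazole and 62.1 ± 0.0192 in parental DMSO cells. Fcgrt, the neonatal Fc receptor gene, stood at 37.8 ± 5.14 CPM in KD largazole, 23.2 ± 2.00 in KD DMSO, 25.2 ± 1.58 in parental largazole and 11.1 ± 0.381 in parental DMSO cells. The 5 nearest to Cd44 included Hmga2 (0.0326), Casd1 (0.0389), Fhod1 (0.0399) and Lig3 (0.0451). Hmga2, an architectural chromatin protein gene, stood at 599.9 ± 46.4 CPM in KD largazole, 834 ± 37.3 in KD DMSO, 611 ± 15.6 in parental largazole and 811 ± 11.1 in parental DMSO cells. When genes were ranked by Pearson correlation instead, 2 of the 5 were the same for each gene, Fam63a and Fcgrt for Spp1 and Fhod1 and Lig3 for Cd44. These 8 libraries fall into 4 groups, so the likeness describes the group means and carries no test.

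**Figure D4:**
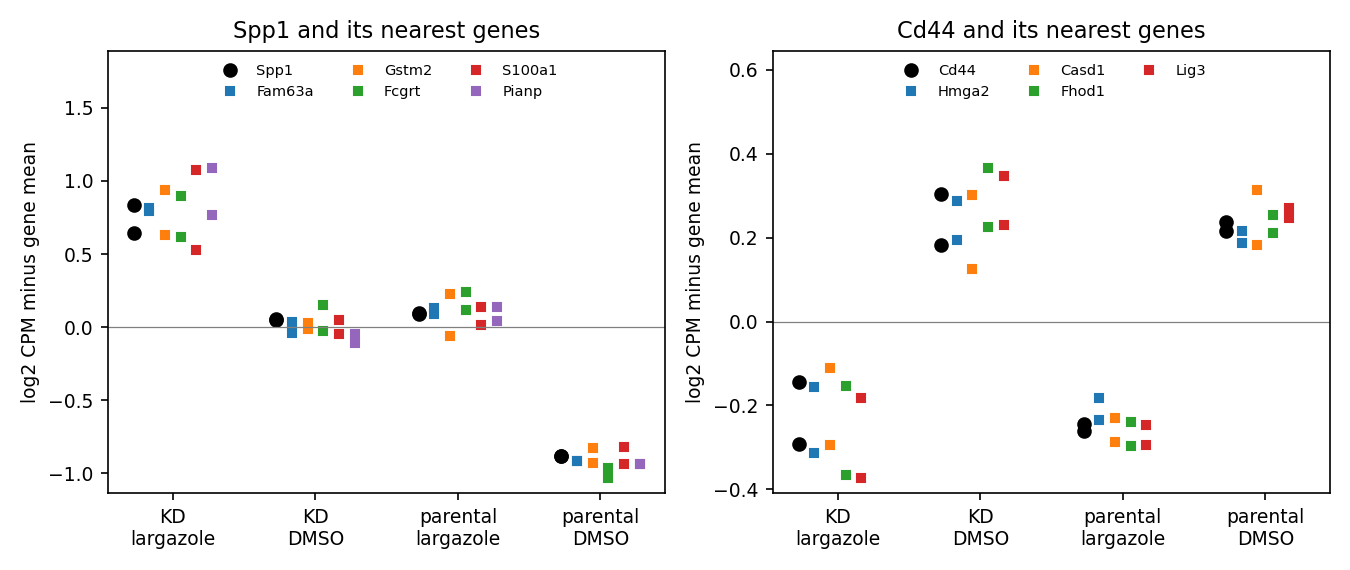
Log2 CPM minus the mean of the gene in each library, in the 4 groups, for Spp1 (left) and Cd44 (right), as black circles, and for the 5 genes nearest to Spp1 and 4 of the 5 nearest to Cd44, as coloured squares side by side. Spp1 and its 5 neighbours are highest in KD largazole and lowest in parental DMSO, and Cd44 and the 4 neighbours shown are lower in both largazole groups than in both DMSO groups.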

How the data were processed

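Per the labels' protocols, poly(A) RNA went into directional libraries. The genome build was mm10 per the submitters' processing notes. How reads were aligned and counted, on which strand and with which annotation, is not given in the sources used here. What the authors deposited are unnormalized estimated counts for each symbol (2.71% of values are not whole), which were rounded to whole numbers for testing. If counting ignored strand, genes whose exons overlap on opposite strands share reads. Overlaps were examined only for Spp1, Cd44 and the genes of the lists, and not for Prdx6, Eef1a1 or genes named only as markers or nearest genes. Of the examined genes that are named, this touches Itgav, Itga4, Itga8, Tgm2, Mmp7, Mmp12, Tnc, Thbs1, Fn1, Runx2, Fosl1, Jun, Junb, Jund, Gli1, Usf2, Has2, Has3, Stab1, Ezr, Msn, Rhoa, Adam17, Timp3, Ncstn, Esrp1, Esrp2, Rbm38 and Cd34. Spp1, Ctsd, Ugdh, Cd74 and Hnrnpm overlap another gene on the same strand, and Ctgf, Cyr61 and Nov were not matched to the annotation. A set of 27 symbols had been turned into dates and could not be named.

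All 8 libraries entered 1 fit of the 4 group means in edgeR 4.0.16, whose two-sided quasi-likelihood test gave the main results after TMM scaling. Genes were kept by filterByExpr with a minimum count of 10 and a minimum total of 15, and p-values were adjusted after Benjamini and Hochberg over 12517 genes at a threshold of 0.05. The script was tested on simulated counts with known changes. For likeness, a prior count of 2 was used in log2 CPM. Exon lengths and transcripts came from GENCODE M21, with a length for 23350 of 24411 symbols, and promoters from RefSeq. From each of the 12 lists the genes named were, for each pairwise comparison, up to 4 passing genes with the largest changes, and defining members with few counts. Itgav, Itgb1, Runx2, Adam10, Adam17, Pkd2 and Dmp1, which did not pass, and Egfr are named outside that rule. Some genes that the rule names are not reported here.

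The members and the lists were chosen with earlier results of these data known. Alternatives were Spp1 left out of scaling, scaling by upper quartile, by RLE or by library totals, no filter, a stricter filter (minimum count 30 and 1 CPM), DESeq2 1.42.0, limma-voom (limma 3.58.1), the older quasi-likelihood method, only the libraries compared, the replicate number as a block, and each library left out in turn. Removal of Rn45s was added after seeing the data. With 1 library left in a group, it is assumed to vary like the other groups. Leaving out a library also changed how many of all genes passed. List counts without 1 library therefore cannot be set against the shares of the main fit. Software was R 4.3.3 and Python 3.11.15, with matplotlib 3.10.9 for figures.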

Additional observations from a re-analysis of the deposited data

Results flagged for a closer look

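For 3 of 104 related genes tested the response to largazole differed between KD and parental cells by the test of the difference itself, which 0.208% of all 12517 genes passed. The lists were chosen with earlier results of these data known, so these shares are not an independent comparison. The log2 difference, KD minus parental, was -1.26 for Slc7a11 (adjusted p = 0.0402), -1.08 for Thy1 (adjusted p = 0.0241) and -0.79 for Cyr61, a matricellular protein gene (adjusted p = 0.0290, edgeR's quasi-likelihood test). Slc7a11 fell by 2.25 in KD and 1.00 in parental cells and Cyr61 by 1.46 in KD and 0.67 in parental cells, while Thy1 rose by 0.82 in KD and 1.90 in parental cells. All 3 calls were lost without any 1 parental or KD DMSO library, those of Slc7a11 and Cyr61 also with library totals only or with no filter, and that of Slc7a11 with limma-voom. Their adjusted p reached 0.370 for Slc7a11 and Cyr61 and 0.319 for Thy1 over all alternatives.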

How the results depend on the processing

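In the 4 pairwise comparisons Spp1 and Cd44 kept their calls under all 20 alternatives. The highest adjusted p was 0.0431 for Spp1, for the knockdown under largazole, and 0.0174 for a called comparison of Cd44. The log2 fold change of Spp1 ranged from 0.59 to 0.78 (largazole in KD cells), 0.95 to 1.06 (in parental cells), 0.55 to 0.75 (knockdown under largazole) and 0.92 to 0.96 (in DMSO). Without one library, the difference of its responses ranged from -0.39 to -0.18 and passed only without KD largazole replicate 1. Log2 values of Cd44 that did not pass took both signs without one library, from -0.036 to 0.11 (knockdown under largazole), -0.050 to 0.077 (in DMSO) and -0.043 to 0.10 (difference of responses). The share of Spp1 was 1.01% in KD DMSO, 1.03% in parental largazole and 0.526% in parental DMSO with TMM-scaled totals, 0.988% in KD DMSO without Rn45s, and 0.991% in KD DMSO and 0.519% in parental DMSO without Spp1 in the total. With the replicate block the difference of the Spp1 responses was -0.29 (adjusted p = 0.301) and no call of either gene changed. It moved the number of genes lower in KD in DMSO to 861 (503 without it) and those passing the difference of responses to 23 higher and 81 lower (4 and 22). Replicate differences correlated at 0.273 to 0.364 among KD largazole, KD DMSO and parental largazole, where replicate 1 held more Rn45s, and at -0.0077 to 0.146 between these and parental DMSO. As the labels do not tie the numbers to a shared batch and not every group correlated, the numbers were not taken to pair the samples.

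Upper-quartile scaling moved the median of all genes to 0.11 with largazole in parental cells. With only the libraries compared, 1745 genes were higher and 1521 lower with the knockdown in DMSO (877 and 503 with all libraries fitted), and 535 and 430 under largazole (1065 and 1228). Without one library, the number of genes higher in KD was 416 to 2051 under largazole and 315 to 1606 in DMSO. Of 192 calls of related genes 116 held under every alternative that gave a value (Ibsp had none under the stricter filter), 76 were lost under at least 1 and 0 turned round.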
